A study of Rattus norvegicus with 8 samples.

Results

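The cell cycle regulators described here are 107 genes measured by 164 probe sets, out of 14217 genes and 31042 probe sets on arrays of rat whole blood. Membership was set by gene symbol, under a rule made with earlier results of these data known. The platform annotation had to give the probe set exactly 1 symbol. That symbol had to name a cyclin A, B, D or E, a Cdc, Cdk, Cdkn or Mcm gene or an Aurora kinase. Bub1, centromere proteins, Mki67, Top2a, Pcna and Plk1 were also taken. Blood came from 8 male Wistar rats, bought at 7 weeks of age and acclimated on a normal diet (CE-2). For the next 8 weeks 4 of them ate the normal diet and 4 a high-fat diet (Quick fat). All were fasted overnight before the blood was taken, and each array was taken as a separate animal. The study asked how mulberry leaf affects blood expression, and its group fed mulberry leaf powder is not analysed here.

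Cyclins bind and switch on cyclin-dependent kinases, and the proteins of the Cdkn family hold those kinases back. D and E cyclins drive a cell toward DNA replication, Mcm proteins open the origins where replication starts, and A and B cyclins carry the cell into mitosis. There the Aurora and Polo kinases build the spindle, and the anaphase-promoting complex, with its activator Cdc20, ends mitosis by destroying its targets. Mature blood cells mostly do not divide, whereas activated lymphocytes and immature cells that reach the blood can. Many genes of mitosis carry a promoter element called CHR, through which they are shut off in resting cells, beside CCAAT boxes, and many replication genes carry E2F sites.

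The deposited values read as log2 levels between 5.19 and 15.25, but the 8 arrays were almost identical. From the lowest to the highest array, the median probe set spanned 17.8 millionths of a log2 unit, and the median cell cycle regulator 22.5. The widest range of any probe set was 0.408 log2 units. How such differences relate to amounts of RNA is not known, so they are not read as log2 ratios and folds are left out. Differences are in millionths of a deposited log2 unit, always as high-fat minus normal, or in multiples of the gene's pooled SD within the groups, called within-group SDs. Scaled levels are SDs of a gene over the 8 arrays from its own mean. Some blood markers were bright: the globin gene Hbb stood at 15.09, the heme synthesis gene Alas2 at 13.68, the neutrophil gene S100a9 at 11.59 and the T cell gene Cd3e at 9.87. Others were not. The median percentile of probe sets was 97.2 for 12 erythroid and 96.6 for 10 T cell markers, but 49.7 for 7 neutrophil markers. In whole blood, fewer cells of a type and less RNA per cell cannot be told apart.

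Of the genes chosen, the phosphatase gene Cdc25b, whose product switches on mitotic kinase complexes, had the highest level, 13.07, at the 99.8th percentile of probe sets. The small GTPase gene Cdc42, which shapes the actin skeleton and is not a part of the cell cycle engine, followed at 10.81. The ubiquitin-conjugating enzyme gene Cdc34 stood at 9.20, the kinase chaperone gene Cdc37 at 8.79, and the inhibitor genes Cdkn1b and Cdkn2d at 8.75 and 8.66. Probe sets differ in brightness, so these values do not rank amounts of RNA between genes. At the other end, Ccna2, the cyclin of replication and early mitosis, stood at 5.46, at the 0.432nd percentile of probe sets. The tumour suppressor gene Cdkn2a stood at 5.75, the spindle checkpoint kinase gene Bub1 at 6.0 and the mitotic kinase gene Cdk1 at 6.13. The replication helicase gene Mcm7 at 8.12 and the sliding clamp gene Pcna at 8.16 lay above the 90th percentile. The classic proliferation markers were ordinary in brightness, with Mki67 at 6.70 and Top2a at 6.34. In all, 39 of the 107 genes (36.4%) lay above the array's 75th percentile, against 38.1% of all genes, and 11 (10.3%) below the 25th, against 14.3%. By role, 7 Cdc genes outside the named complexes had a median at the 93.7th percentile and 17 centromere protein genes at the 49.7th.

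**Figure D1:**
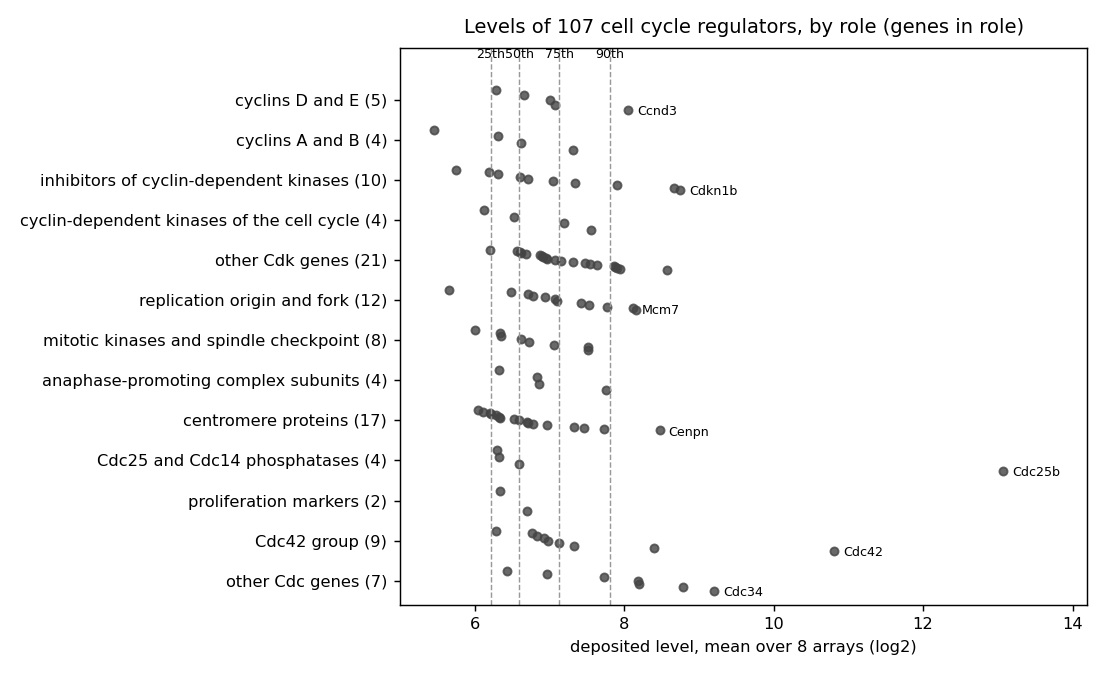
Deposited log2 level of each of the 107 cell cycle regulators, as the mean over 8 arrays (horizontal axis), in rows by role, 1 probe set a gene. Dashed lines mark the array's 25th, 50th, 75th and 90th percentiles at 6.22, 6.60, 7.13 and 7.81, and Cdc25b at 13.07 and Cdc42 at 10.81 stand far to the right of the others.

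Promoter windows from RefSeq on the rat assembly GRCr8, from 250 bases before to 50 bases after the start of each gene, were matched to 91 of the 107 genes. They were searched on both strands for the CHR (TTTGAA and also TTCGAA), for the CCAAT box (those letters) and for E2F sites, with overlapping matches each counted. An E2F site was TTGGCGC, with the variant TTCCCGC, the variant TTGCCGC and the variant TTCGCGC. A CHR was found in 22 windows (24.2%), against 14.0% of the windows of all genes with a probe set and 19.5% of all 27457 windows. A CCAAT box was found in 47 (51.6%, against 37.3% and 37.7%) and an E2F site in 25 (27.5%, against 15.8% and 10.0%). CHR and CCAAT box occurred together in 14 windows (15.4%), against 5.76% and 7.83%. E2F sites were in 7 of 10 windows of replication genes. CHR and CCAAT box were both in the windows of Mki67, Top2a and Cdk1. These matches describe letters and not bound sites, and a window with no match says only that those letters are not in it.

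The windows of 7 genes on which the results below turn are shown, with the matches in capitals on the strand of the gene, so that a motif on the other strand reads as its reverse complement. Ccnb2 (chr8:79981609-79981908, minus strand) was the gene whose diet groups did not overlap, and its window held 2 CHR, 3 CCAAT boxes and 1 E2F site. Cdc20 (chr5:137255750-137256049, minus strand) had the most probe sets, 5, and its window held 1 CHR between 2 CCAAT boxes. Cdkn1b (chr4:169491254-169491553, plus strand), Cenpw (chr1:29353720-29354019, plus strand) and Cdkn3 (chr15:22502136-22502435, plus strand) were among the genes of widest range. Ccnd3 (chr9:20897826-20898125, minus strand) is the D cyclin with a matched window, with 1 CCAAT box. Mcm6 (chr13:42404303-42404602, minus strand) is shown for its 5 E2F matches, overlapping ones included, beside 2 CCAAT boxes.
Ccnb2: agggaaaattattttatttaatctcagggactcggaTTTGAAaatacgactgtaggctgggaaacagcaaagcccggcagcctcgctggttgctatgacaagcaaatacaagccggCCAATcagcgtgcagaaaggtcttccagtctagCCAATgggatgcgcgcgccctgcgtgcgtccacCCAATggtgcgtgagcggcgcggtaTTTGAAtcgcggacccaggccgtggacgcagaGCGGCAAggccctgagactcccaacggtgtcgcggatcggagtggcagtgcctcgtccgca
Cdc20: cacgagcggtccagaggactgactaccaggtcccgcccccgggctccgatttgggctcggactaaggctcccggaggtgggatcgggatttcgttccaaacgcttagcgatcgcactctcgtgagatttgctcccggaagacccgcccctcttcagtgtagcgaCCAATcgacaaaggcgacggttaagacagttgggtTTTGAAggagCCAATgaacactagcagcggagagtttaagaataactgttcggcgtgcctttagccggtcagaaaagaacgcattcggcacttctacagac
Cdkn1b: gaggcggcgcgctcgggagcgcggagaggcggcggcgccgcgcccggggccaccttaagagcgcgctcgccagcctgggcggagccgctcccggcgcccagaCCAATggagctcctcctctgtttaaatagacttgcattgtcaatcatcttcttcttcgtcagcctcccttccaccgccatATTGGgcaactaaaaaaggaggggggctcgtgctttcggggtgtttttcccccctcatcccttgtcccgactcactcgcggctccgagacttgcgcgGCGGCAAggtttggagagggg
Cenpw: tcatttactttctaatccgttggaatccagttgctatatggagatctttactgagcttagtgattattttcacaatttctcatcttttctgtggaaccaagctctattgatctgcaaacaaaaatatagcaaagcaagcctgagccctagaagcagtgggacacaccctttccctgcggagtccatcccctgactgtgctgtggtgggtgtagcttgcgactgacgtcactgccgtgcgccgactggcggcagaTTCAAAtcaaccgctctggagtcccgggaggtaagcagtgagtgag
Cdkn3: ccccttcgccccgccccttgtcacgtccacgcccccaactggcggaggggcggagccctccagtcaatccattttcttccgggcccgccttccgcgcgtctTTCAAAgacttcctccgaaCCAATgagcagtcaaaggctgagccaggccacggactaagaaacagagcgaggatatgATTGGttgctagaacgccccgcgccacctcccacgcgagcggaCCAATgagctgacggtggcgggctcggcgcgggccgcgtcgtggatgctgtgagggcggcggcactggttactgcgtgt
Ccnd3: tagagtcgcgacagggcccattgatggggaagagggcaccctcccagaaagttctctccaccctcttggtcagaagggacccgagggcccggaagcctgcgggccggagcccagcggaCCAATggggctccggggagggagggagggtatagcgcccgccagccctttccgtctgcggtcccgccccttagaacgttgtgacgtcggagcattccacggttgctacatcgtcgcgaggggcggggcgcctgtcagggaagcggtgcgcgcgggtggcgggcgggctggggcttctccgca
Mcm6: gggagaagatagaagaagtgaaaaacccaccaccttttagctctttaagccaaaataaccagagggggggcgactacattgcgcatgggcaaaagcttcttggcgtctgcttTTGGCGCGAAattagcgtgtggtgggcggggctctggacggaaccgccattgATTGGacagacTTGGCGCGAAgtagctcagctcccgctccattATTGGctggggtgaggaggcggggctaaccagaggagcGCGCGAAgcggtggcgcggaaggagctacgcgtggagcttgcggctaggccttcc

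Between the diets, none of the cell cycle regulators passed the test. Each probe set was tested with limma, with p-values adjusted over all 31042. The count past an adjusted p of 0.05 was 0 (0.0%) over the whole table, where the smallest adjusted p was 0.736, and 0 of the 164 cell cycle probe sets, all of which had an adjusted p of 1.0. Before adjustment, 0 of the 107 genes had a limma p under 0.05, against 284 of all genes (2.0%). Welch's test gave 0 after adjustment and 1 gene before it, Ccnb2. The groups did not overlap in 1 of the 107 genes, again Ccnb2, against 187 of all genes (1.32%), so the share of 1 in 107 was no higher than in the whole table. All directions given below are therefore values and not called changes. Of the 44 genes named by rule, 16 turned direction when 1 animal was left out: Ccnb1, Ccnd2, Ccnd3, Cdc16, Cdc26, Cdc27, Cdc34, Cdc42, Cdc42ep3, Cdk4, Cdk9, Mcm6, Mcm7, Pcna, Plk1 and Top2a.

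The direction of the differences was split. As deposited, 58 of the 107 genes were higher in the high-fat group and 49 lower, with a median of 0.0732 within-group SDs and the middle of the genes between -0.374 and 0.417. Over all genes 47.4% were higher, with a median of -0.0374. Centring each array on its median left 4 of the 107 genes and 2.38% of all genes on the higher side. Centring on the median of each array's deviations from the probe set means, chosen after seeing the data, left 61 of the 107 and 52.3% of all genes there. Quantile normalization on top left 29 higher and 39 lower, with 39 equal in both groups. Without high-fat 2, high-fat 4 or normal 3, the median of the 107 genes was -0.0641, -0.0309 and -0.00109. Leaving out the Cdc42 group and the other Cdc genes gave 50 of 91 higher, with a median of 0.126. A difference of more than 1 within-group SD was seen in 10 genes on the higher and 4 on the lower side (13.1%), against 12.2% of all genes.

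**Figure D2:**
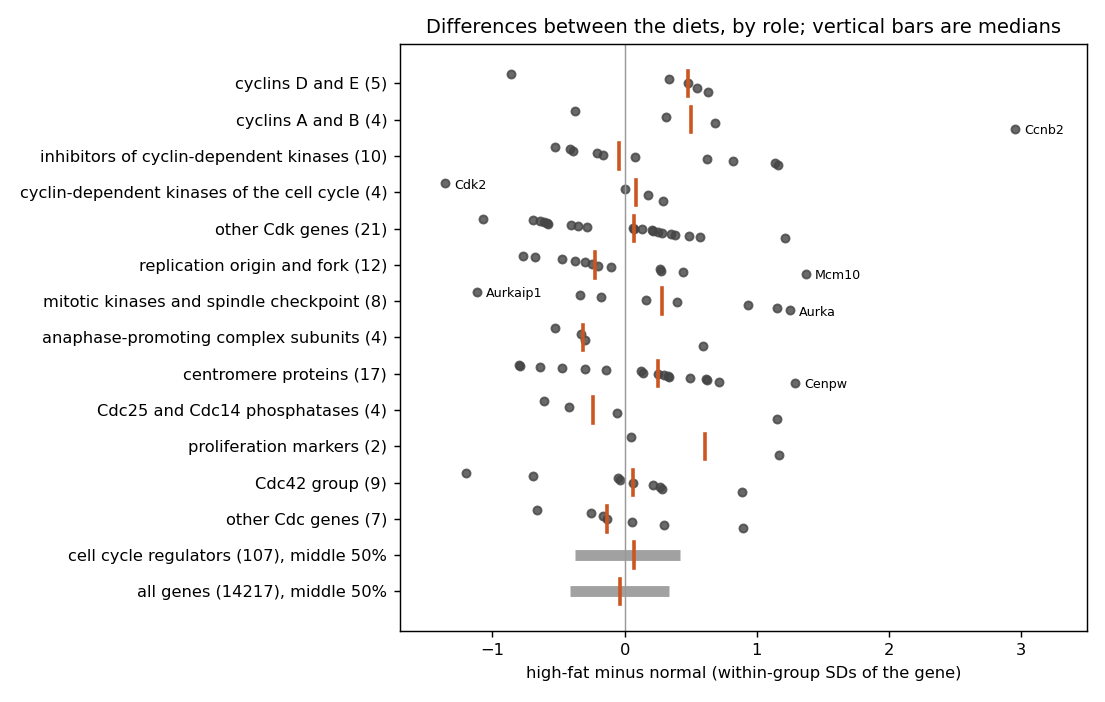
Difference between the diets for each of the 107 cell cycle regulators (high-fat minus normal, in within-group SDs of the gene, horizontal axis), in rows by role, with a vertical bar at the median of each row; the 2 lowest rows give the middle 50% of the 107 genes and of all 14217 genes. Ccnb2 stands alone at 2.95, and the bars of the 107 genes and of all genes overlap nearly in full, with medians of 0.0732 and -0.0374 as deposited.

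Among the cyclins that drive cells toward replication, 4 of 5 genes were higher in the high-fat group as deposited, with a median of 0.482 within-group SDs. This rested on high-fat 4: without it, 2 of 5 were higher and the median was -0.165. Ccnd2, a D cyclin of lymphocytes and other blood cells, deviated from its mean by -84.7, -115, 105 and -55.9 millionths in normal 1 to 4 and by -137, 46.9, -69.6 and 310 in high-fat 1 to 4. High-fat 4 was far above all other animals, and the remaining high-fat values lay within the range of the normal ones except high-fat 1, the lowest. The mean difference was 75.1 ± 110 millionths (SE, 4 animals a group), and -15.8 without high-fat 4. Ccnd3, the D cyclin that T cell and erythroid precursors depend on, read -2.51, -1.47, -5.73 and 2.93 millionths in the normal and -1.89, -1.58, -3.47 and 13.7 in the high-fat animals. Again only high-fat 4 exceeded the highest normal value. Its difference was 3.39 ± 4.41 millionths, and -0.617 without high-fat 4.

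Ccnd1 was read by 3 probe sets, all of them higher in the high-fat group, from 0.631 to 0.947 within-group SDs, and without high-fat 4 from 0.110 to 0.734. Of the 5 D cyclin probe sets, 4 had their highest value in high-fat 4 and 1, of Ccnd1, in high-fat 3. The D cyclins were looked at together after their values had been seen. With 1 probe set for each of the 3 genes, their mean scaled level was 2.12 in high-fat 4. It was between -0.611 and 0.0248 in the other 7 animals. In the same animal the mean scaled level of 6 monocyte markers was 1.93 and that of 7 natural killer and cytotoxic cell markers 2.02, while 5 platelet markers were at -1.39, the lowest of the 8 animals, and 10 T cell markers at -0.619. In the other high-fat animals the monocyte and the cytotoxic markers lay between -0.560 and -0.132 and between -0.376 and 0.115, and in the normal animals between -0.482 and -0.00671 and between -0.823 and 0.0232. By diet, 5 of the 6 monocyte markers and 7 of the 7 cytotoxic ones were higher in the high-fat group, none of them past the test. Their part in the D cyclin values was not tested. Of the E cyclins, Ccne1 was at 0.334 within-group SDs. Ccne2 was at -0.859 by its brighter probe set, with high-fat 1 lowest at -13.2 millionths, and at 0.261 by its dimmer one.

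**Figure D3:**
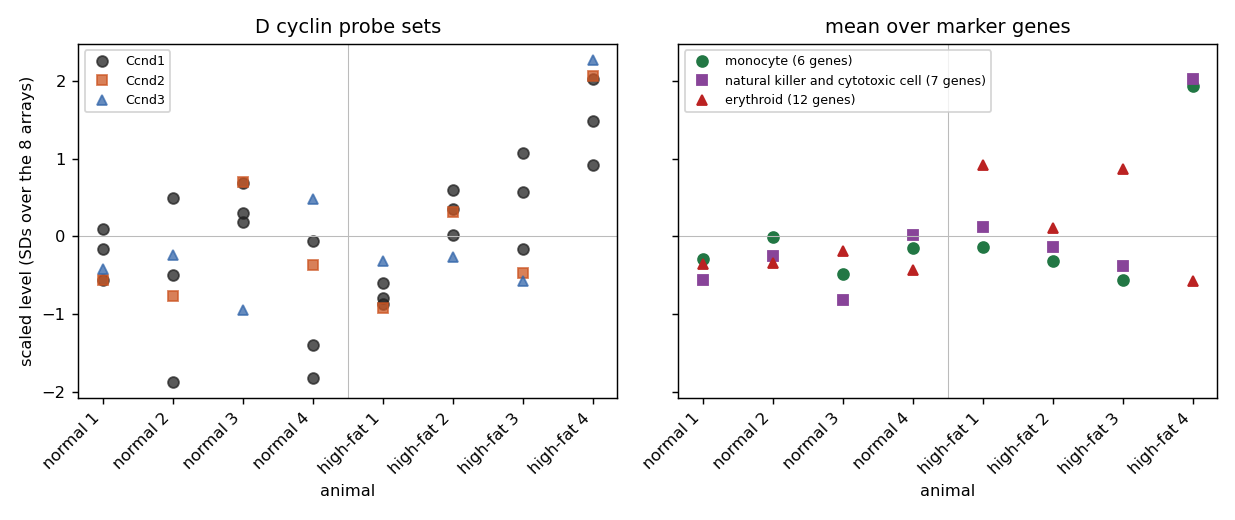
Scaled level (SDs over the 8 arrays from the mean, vertical axis) in each animal of the 5 D cyclin probe sets (left) and of the mean over monocyte, natural killer and cytotoxic, and erythroid marker genes (right). High-fat 4 is highest for 4 of the 5 D cyclin probe sets and for the monocyte (1.93) and cytotoxic (2.02) markers, while the erythroid markers are highest in high-fat 1 (0.919) and high-fat 3 (0.863).

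Ccnb2, a cyclin of mitosis, was the 1 gene whose groups did not overlap. It read -0.219, -0.832, -0.0814 and -0.573 millionths in normal 1 to 4 and 0.589, 0.562, 0.458 and 0.0986 in high-fat 1 to 4. All 4 high-fat values lay above all 4 normal ones, with normal 3 and high-fat 4 closest together. The difference was 0.853 ± 0.204 millionths (SE), or 2.95 within-group SDs, and it lay between 2.62 and 3.70 within-group SDs with any 1 animal left out. Centring on array medians turned the difference to -65.1 millionths, and quantile normalization on top brought it to 0. The gene's whole range of 1.42 millionths stood at the 2.02nd percentile of the ranges of all probe sets. For limma, which draws each variance toward those of the other probe sets, its adjusted p was 1.0. Its level was low, 6.31. The other mitotic cyclin, Ccnb1, had probe sets on both sides, at -0.372 within-group SDs for the brighter and 0.838 for the dimmer. Ccna2 differed by 0.293 ± 0.304 millionths. Ccna1, a cyclin of the germ line, was at 0.314 within-group SDs by its brighter and at -1.01 by its dimmer probe set. Over the 4 A and B cyclins the median was 0.498, and 0.096 without normal 2.

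Among the inhibitors, Cdkn1b encodes the inhibitor that keeps resting lymphocytes out of the cycle, and its probe set at level 8.75 had the widest range of the 107 genes, 798 millionths. It read -18.6, 456, -341 and 181 millionths in the normal and -88.4, 42.6, -290 and 58.4 in the high-fat animals. Normal 2 was highest and normal 3 lowest, so the high-fat values all lay within the normal range. The difference was -138 ± 186 millionths, or -0.526 within-group SDs. A dimmer Cdkn1b probe set gave -0.137, but over the 8 animals it ran against the brighter one (correlation -0.697). Cdkn3, a phosphatase that acts on cyclin-dependent kinases, read -149, -77.0, 38.9 and -92.2 millionths in the normal and -119, 86.7, 54.1 and 257 in the high-fat animals. High-fat 2, 3 and 4 exceeded every normal value and high-fat 1 did not. Its difference was 140 ± 86.5 millionths, or 1.14 within-group SDs (limma adjusted p = 1.0).

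Cdkn2c, an inhibitor of the kinases that partner D cyclins, read -67.5, -68.9, 40.3 and -56.4 millionths in the normal and 152, -6.87, 6.84 and 0.401 in the high-fat animals. High-fat 1 and normal 3 each stood apart from their own group, and the groups overlapped through normal 3. The difference was 76.3 ± 46.3 millionths, or 1.16 within-group SDs, and the dimmer probe set gave 0.852. Cdkn2d, an inhibitor of the same family, had its probe sets at -0.415 and -0.643 within-group SDs, and they ran together over the 8 animals (correlation 0.904). Cdkn1a, a target of p53, was at 0.620 within-group SDs by its brighter and at -0.388 by its dimmer probe set, and Cdkn2a was at 0.822. Over all 10 genes with a symbol that begins with Cdkn, 5 were higher and 5 lower, with a median of -0.0436 within-group SDs. That median lay between -0.189 and 0.300 with 1 animal left out. The 10 include Cdkn2aip and Cdkn2aipnl, which were placed here by symbol and are not themselves such inhibitors. Cdkn2aip was at -0.393 within-group SDs, with dimmer probe sets at -1.03 and 0.461, and Cdkn2aipnl at -0.207, with a dimmer one at -1.08.

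Of the kinases that run the cycle, Cdk2, which pairs with E and A cyclins, was the lowest in the high-fat group relative to its spread. It read 14.5, 3.07, 7.46 and -3.89 millionths in the normal and -11.0, -8.31, 6.21 and -8.05 in the high-fat animals. High-fat 1, 2 and 4 lay below every normal value, and high-fat 3 among them. The difference was -10.6 ± 5.49 millionths, or -1.36 within-group SDs (limma adjusted p = 1.0), and the dimmer probe set gave -1.13. Cdk1, the kinase of mitosis, differed by 2.32 ± 5.66 millionths, with normal 3 at 14.9 far above the other normal animals. Cdk4, a partner of D cyclins, differed by -0.0142 ± 12.6 millionths. Cdk6, the other partner of D cyclins, was at 0.174 within-group SDs. Among 21 other Cdk genes, many of which act in transcription or in neurons, 12 were higher and the median was 0.0732, and with 1 animal left out it lay between -0.201 and 0.116. Cdk14 was the highest of them at 1.21 within-group SDs, with 3 further probe sets between -0.597 and 0.157. Cdk7, which activates other cyclin-dependent kinases, was the lowest at -1.07, and Cdk9, which releases paused RNA polymerase, was at -0.403 and -0.0671 by its probe sets.

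The replication genes leaned to the lower side as deposited: 4 of 12 were higher, and the median was -0.224 within-group SDs, between -0.429 and -0.0227 with 1 animal left out. The helicase subunit genes were at 0.441 (Mcm2), -0.766 (Mcm3), -0.473 (Mcm4), -0.680 (Mcm5), -0.107 (Mcm6) and -0.200 (Mcm7) within-group SDs. Quantile normalization turned Mcm3 and Mcm6 to the higher side, and centring on array medians turned Mcm2 to the lower. Mcm6 also turned to the higher side without high-fat 3, normal 1 or normal 2, and Mcm7 without normal 2. Mcm3 read -5.81, 9.07, 9.83 and 3.80 millionths in the normal and -9.59, 15.5, -16.6 and -6.23 in the high-fat animals. High-fat 2 was the highest of all animals, while the other high-fat animals lay below every normal one. Mcm7 read 20.2, 29.4, -48.8 and 11.6 in the normal and -16.7, 36.1, -13.7 and -18.0 in the high-fat animals, where high-fat 2 again stood above the rest of its group. Pcna, which holds the polymerase on DNA, had a range of 201 millionths, with normal 3 lowest at -99.1 and high-fat 4 highest at 102, and differed by 18.1 ± 47.1. Its direction turned without normal 3, without high-fat 4, with array weights and with centring on array medians. Mcm10, a factor of the replication fork, was at 1.37 within-group SDs by its brighter and -0.999 by its dimmer probe set.

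Of 8 genes of mitotic kinases and the spindle checkpoint, 5 were higher as deposited, with a median of 0.279 within-group SDs, between 0.0715 and 0.471 with 1 animal left out. Cdc20, which activates the anaphase-promoting complex, read -12.6, -3.03, -0.584 and -1.66 millionths in the normal and -6.87, 14.5, 9.75 and 0.524 in the high-fat animals. High-fat 2, 3 and 4 exceeded every normal value. The difference was 8.95 ± 5.51 millionths, or 1.15 within-group SDs, and of 5 Cdc20 probe sets 4 were higher and 1 lower, between -0.459 and 1.51. Aurka, a kinase of the spindle poles, was at 1.25 within-group SDs, with normal values of -4.48, -1.62, -2.02 and 0.141 millionths against high-fat values of 3.53, -3.76, 2.32 and 5.89. High-fat 1, 3 and 4 exceeded every normal value, and high-fat 2 lay among them. Bub1 was at 0.934, Plk1 at 0.393 and Aurkb at -0.335 within-group SDs. Aurkaip1, named as an interaction partner of the Aurora kinase and not itself a kinase, was counted among the 8 by symbol and stood at -1.12. The 4 anaphase-promoting complex subunits had a median of -0.315, which was 0.173 without normal 2. Cdc27 was at 0.589 within-group SDs, Cdc16 at -0.303 with a dimmer probe set at 0.484, and Cdc26 at -0.526 with further probe sets at -0.630 and -0.173.

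Among 17 centromere protein genes, 11 were higher as deposited, with a median of 0.254 within-group SDs, and of -0.0141 without normal 1. Cenpw, part of the inner centromere complex, had the second widest range of the 107 genes, 475 millionths, and read -97.2, -54.0, -35.5 and -164 in the normal and -66.6, -58.3, 165 and 311 in the high-fat animals. High-fat 3 and 4 stood far above the other 6, and high-fat 1 and 2 lay within the normal range. The difference was 175 ± 96.0 millionths, or 1.29 within-group SDs (limma adjusted p = 1.0). The dimmer Cenpw probe set gave 1.59 with another order of animals, high-fat 1 highest at 8.81 millionths. Cenpk, a protein of the same complex, had its range of 265 millionths from high-fat 1 alone, at 203 against -62.2 to 27.1 in the others. Cenpn, which reads the centromere's histone, was the brightest at 8.48 and at -0.302 within-group SDs, with high-fat 4 at 32.3 millionths above the other high-fat animals. Cenpl, of the same network, was at -0.796 within-group SDs (limma adjusted p = 1.0).

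The phosphatase gene Cdc25b was the brightest of the 107 genes but not among the most different. It read 15.1, 17.4, -12.9 and 0.404 millionths in the normal and -8.08, 5.39, 12.1 and -29.4 in the high-fat animals, with high-fat 4 lowest. The difference was -0.613 within-group SDs, and Cdc25a, whose product acts at the start of replication, was at 1.15 by its brighter and 0.371 by its dimmer probe set. Mki67, which coats chromosomes in dividing cells, read -13.7, 4.91, -15.6 and -5.77 millionths in the normal and 29.8, 4.89, 1.86 and -6.42 in the high-fat animals. High-fat 1 was the highest and the others lay within the normal range. The difference was 15.1 ± 9.09 millionths, or 1.17 within-group SDs. Top2a, the topoisomerase that untangles chromosomes, was at 0.0488 and its dimmer probe set at -0.328.

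Symbols that begin with Cdc also name genes with other tasks. In the Cdc42 group, 5 of 9 genes were higher as deposited, with a median of 0.0606 within-group SDs, which lay between -0.221 without normal 3 and 0.239 without normal 4. Cdc42 itself differed by -2.46 ± 36.4 millionths over a range of 143, and its further probe sets were at -0.138 and 0.329 within-group SDs. Its effector gene Cdc42ep3 differed by 24.1 ± 64.3 over a range of 276. The kinase genes Cdc42bpa and Cdc42bpb were at 0.884 and -1.20 within-group SDs, with a dimmer Cdc42bpb probe set at 0.361. Of 7 further Cdc genes 3 were higher, with a median of -0.132. Without high-fat 3 the median was 0.317, without normal 2 it was 0.116, and without high-fat 2 it was -0.397. Cdc34 was at 0.0575, with further probe sets at -0.641 and 0.929. Cdc37 differed by 0.671 ± 0.531 millionths, and Cdc40, a splicing factor, by -5.52 ± 5.86.

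**Figure D4:**
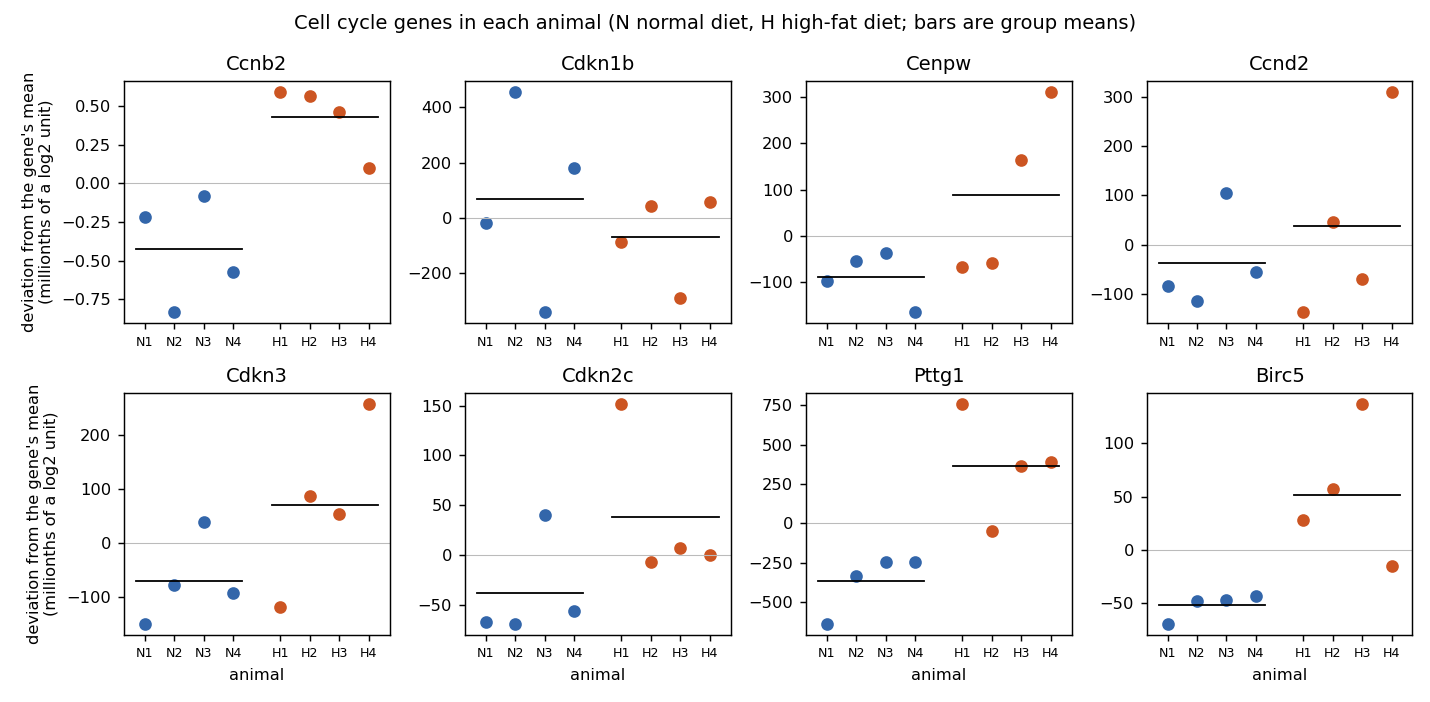
Deviation of each animal from the gene's mean over the 8 arrays (vertical axis, millionths of a log2 unit; the scale differs between panels) for 6 cell cycle regulators and 2 further mitotic genes, with bars at group means of 4 animals. The diets do not overlap for Ccnb2, Pttg1 and Birc5, and single animals set the range of Ccnd2 (high-fat 4 at 310) and Cdkn2c (high-fat 1 at 152).

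Lists of further cell cycle genes were counted beside these, and none of their genes passed the test. Of 38 genes of mitosis and cytokinesis 28 (73.7%) were higher as deposited, against 47.4% of all genes, and 0 passed the test. Their median was 0.188 within-group SDs, between 0.128 and 0.265 with 1 animal left out, against -0.0374 over all genes. The mean scaled level of this list was between -0.150 and -0.0489 in the normal and between 0.0388 and 0.235 in the high-fat animals. The groups did not overlap in this mean as deposited, which was not tested, and the list was chosen with earlier results known. Over all genes the means overlapped, from -0.0678 to 0.0638 in the normal and from -0.0946 to 0.0698 in the high-fat animals. By gene, the groups did not overlap in 2 of the 38, against 1.32% of all genes. Pttg1, or securin, which holds sister chromatids together until anaphase, read -636, -331, -246 and -246 millionths in the normal and 759, -50.4, 361 and 390 in the high-fat animals. Every high-fat value lay above every normal one. The difference was 730 ± 190 millionths, or 2.72 within-group SDs (limma adjusted p = 1.0). It stayed on the higher side under both ways of centring and under quantile normalization on top. The other settings, such as leaving out 1 animal, could not have turned it, because the groups do not overlap. Birc5, or survivin, a partner of Aurora kinase named after its values were seen, read -69.2, -47.5, -47.1 and -43.6 in the normal and 28.1, 57.2, 137 and -14.8 in the high-fat animals. Its groups did not overlap either, and the difference was 104 ± 32.5 millionths (limma adjusted p = 1.0). Fbxo5, an inhibitor of the anaphase-promoting complex, had the smallest p on the lower side, at -1.38 within-group SDs.

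In the same animals the erythroid markers were also mostly higher: 9 of 12, with 2 lower and Hbb equal in both groups. Their mean scaled levels lay between -0.428 and -0.190 in the normal animals and were 0.919, 0.103, 0.863 and -0.569 in high-fat 1 to 4. The groups also did not overlap in Hemgn, which acts in red cell precursors (2.63 within-group SDs, limma adjusted p = 1.0). High-fat 1 was highest of all 8 animals in Pttg1 (759 millionths) and in erythroid level. High-fat 4 was above every normal animal in Pttg1 and Birc5 and had the lowest erythroid level. The part of erythroid cells in the values of Pttg1, Birc5 and the mitosis list was not tested.

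Of 32 genes of replication and nucleotide supply 16 were higher, with a median of 0.0114 within-group SDs. Rpa2, a protein that coats single-stranded DNA, was at -1.94 (limma adjusted p = 1.0) and Orc5, of the origin recognition complex, at 1.76 by its brighter and 0.136 by its dimmer probe set. The list's median moved between -0.315 and 0.0931 with 1 animal left out. Of 25 genes of transcription and checkpoint control 14 were higher, with a median of 0.0323, between -0.241 and 0.176 with 1 animal left out. E2f4, a repressor of cell cycle genes in resting cells, was at 1.49 and the checkpoint kinase gene Chek2 at -1.41 within-group SDs. Some genes of these lists were among the brightest on the array: Fzr1 at 10.76, Tk1 at 10.56, Tfdp2 at 10.45 and Ube2c at 9.57, with differences between -0.425 and 0.706 within-group SDs by these probe sets. Dimmer probe sets of Tk1 were at 0.858 and -2.51, of Tfdp2 at 1.25 and -0.200, and of Fzr1 at -0.412 and -0.297.

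By promoter motif, 15 of the 22 genes with a CHR were higher as deposited, with a median of 0.294 within-group SDs, as were 28 of 47 with a CCAAT box (0.211) and 12 of 25 with an E2F site (-0.0374). Of the 31 genes with none of these motifs 15 were higher, with a median of -0.0008. Over all 91 genes with a window the numbers were 50 and 0.0732. The motif groups share genes, and the differences between them were not tested.

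Highest and lowest values were spread over the animals of both diets. Normal 2 held the highest value most often, in 22 of the 107 genes (20.6%), against 15.4% of all genes. High-fat 4 held it in 19 (17.8%), against 14.0%. Normal 3 held the lowest value in 23 (21.5%), against 24.6%. Among the 39 bright genes normal 3 was lowest in 35.9%, against 44.0% of all genes above the 75th percentile. Probe sets of the same gene often did not run together. Of 39 genes with more than 1 probe set, all probe sets had the same direction in 15 (38.5%), against 45.2% of all such genes, and the median correlation between a gene's probe sets over the 8 animals was 0.0737. A range over 100 millionths was seen in 15 of the 107 genes (14.0%), against 14.6% of all genes.

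**Figure D5:**
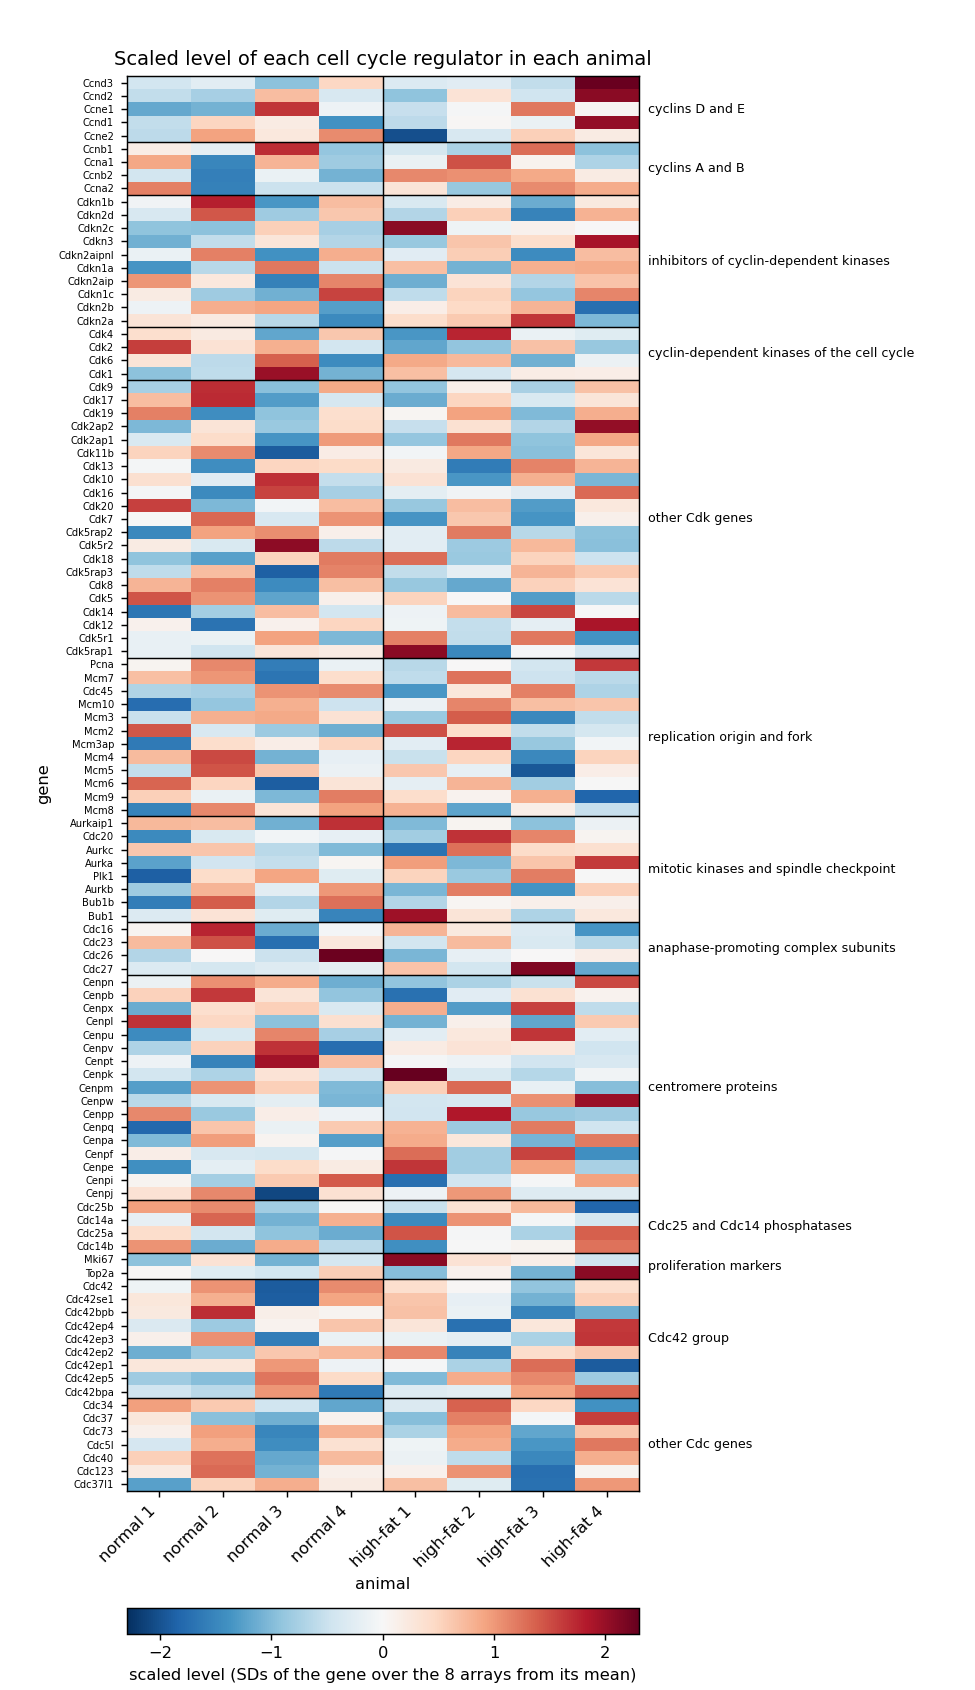
Scaled level of each of the 107 cell cycle regulators (rows, grouped by role and ordered by level within a role) in each of the 8 animals (columns; the vertical line parts normal from high-fat), in SDs of the gene over the 8 arrays from its mean. The D cyclins are darkest in high-fat 4, where their mean is 2.12, and normal 3 holds the lowest value of 23 genes.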

How the data were processed

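Whole blood RNA of 8 rats was hybridised to Affymetrix 3' arrays. The values used are the log2 levels of the table the authors deposited, for which a background correction, normalization and probe summary were not given in the sources used here. Precision is limited by the number of arrays, and signal over background was not analysed.

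Of 31099 probe sets, 57 controls were left out. Of the others, 20826 had 1 symbol in the annotation, 436 had several and 9780 had none and stay unnamed. All 107 regulators matched GRCr8 by gene number, with symbols unchanged. A gene with several probe sets was summarised by the one of the highest mean over the 8 arrays, and further probe sets of a named gene are given with it.

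The members and lists were chosen with earlier results of these data known. Named were, per role, the gene of the highest level and those of the smallest p in each direction, the 5 widest ranges, genes whose groups did not overlap, fixed genes (Mki67, Top2a, Pcna, Plk1, Ccna2, Ccnb1, Cdk1 and Mcm2 to Mcm7) and, per further list, the smallest p in each direction. Other genes were picked once their values were known.

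Groups of 4 were compared with limma 3.58.1, run in R 4.3.3, by two-sided lmFit and eBayes fits without covariates (Benjamini-Hochberg over 31042 probe sets, threshold 0.05), tested on simulated data. In a test with unequal variances (Welch) the same adjustment was used. Tables were made with pandas 2.3.3 in Python 3.11.15. Alternatives were trend and robust eBayes, array weights, a replicate block, array centring, quantile normalization on top, the brighter probe sets and leaving out each animal in turn. Replicate numbers were not taken to pair the animals, since the labels give no shared litter or batch and not every same-numbered pair deviated together. P-values measure only the spread between these animals.

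Marker lists not described above had 2 of 10 genes higher in the high-fat group for T cells, 1 of 4 for B cells, 4 of 6 for plasma cells, 5 of 7 for neutrophils, 1 of 5 for platelets and 3 of 5 for stem and progenitor cells, with 0 past the test.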

Additional observations from a re-analysis of the deposited data

Results flagged for a closer look

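In 7 of 100 groups of 4 animals looked at (50 named genes, each in 2 groups), the highest or lowest animal was set apart. It stood far enough from its neighbour by Dixon's 95% limit. Chance sets apart about 1 in 20 independent groups. These groups share the same 8 animals, and some genes were named for their values, so the 2 rates cannot be compared. All values are deviations from the gene's mean in millionths of a deposited log2 unit. Cdkn2c, an inhibitor of D cyclin kinases, had high-fat 1 at 152 and normal 3 at 40.3, each the highest of its group. Cdk1, the kinase of mitosis, had normal 3 at 14.9, with the other normal animals between -8.08 and -4.44. Ccnd3 had high-fat 4 at 13.7, with the other high-fat animals between -3.47 and -1.58. The centromere protein gene Cenpn had high-fat 4 at 32.3, with the others of its group between -19.4 and -11.0. The helicase subunit gene Mcm7 had high-fat 2 at 36.1, with the others between -18.0 and -13.7. The kinase gene Cdc42bpb had normal 2 at 8.06, with the others between 0.307 and 1.07.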

How the results depend on the processing

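With 4 animals a group and arrays this alike, the counts of higher and lower genes depended on the scaling. Centring each array on its median left 4 of the 107 genes higher, with a median of -1.21 within-group SDs; the array medians differed by 66.0 millionths between the diets (31.3 without high-fat 4), while the medians of the probe sets' own deviations differed by -0.289. Of the 50 named genes, 21 changed sign under this centring. Centring on the median deviation instead, an alternative chosen after seeing the data, gave 61 higher. In the brighter probe sets 38 of 76 genes were higher. Quantile normalization on top passed 32 probe sets, of which 30 had identical values within each group, and 1 of them was a cell cycle probe set (Cenpn); 29 genes were then higher. With 1 animal left out, between 48 and 63 genes were higher, with medians between -0.0641 and 0.13, and 0 probe sets passed. The replicate block cannot change a difference, because each number occurs once in each group, so 58 stayed higher. It can change the spread, and the median was then 0.128 within-group SDs. With it 0 passed, and 4 of the 107 genes had an unadjusted limma p under 0.05. Same-numbered animals deviated with correlations of -0.121, 0.197, 0.355 and 0.14; normal 2, 3 and 4 correlated best with their own number, and normal 1 with high-fat 2 (0.149). Array weights gave 52 higher, the mean over a gene's probe sets 55 and a wider reading of the symbol rule 64 of 118.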
